A study of Mus musculus with 6 samples.

Results

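The subunit genes of the mitochondrial respiratory chain and ATP synthase were followed by complex and by genome in sorted intestinal fibroblasts of mouse pups. Members were chosen by gene symbol: Nduf, Sdh, Uqcr, Cyc1, Cycs, Cox4 to Cox8 and Atp5 names for nuclear genes, and mt-Nd, mt-Co, mt-Cytb and mt-Atp names for mitochondrial genes. The rule gave 94 of the 15238 genes in the deposited table, 82 nuclear and 12 mitochondrial. Complex I held 37 nuclear and 7 mitochondrial genes, complex II 4 nuclear genes, and complex III 9 nuclear and 1 mitochondrial. Complex IV held 14 nuclear and 3 mitochondrial genes, complex V 17 nuclear and 1 mitochondrial, and Cycs, the mobile carrier cytochrome c, was kept apart.

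All pups were of the Balb/c strain at postnatal day 9. There were 3 wild-type libraries, numbered 1, 3 and 4, and 3 DdblGata1 libraries, numbered 4, 9 and 10, from pups that lack eosinophils. The DdblGata1 allele deletes a regulatory site of the blood cell factor gene Gata1 in the whole animal and not in fibroblasts alone. Gata1 itself was estimated at 1 count in wild-type replicate 1 and at 0 elsewhere, so its level could not check the genotype. The intestine was stripped of epithelium, digested, and sorted for podoplanin-positive cells without CD45, EpCAM or CD31. Whether each library is a separate animal is not in the labels, so p-values measure the spread between libraries only.

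Respiratory complexes I to IV pass electrons from NADH and succinate to oxygen and pump protons out of the mitochondrial matrix, except complex II, which does not pump. Complex V, the ATP synthase, lets the protons return and makes ATP. A core of hydrophobic subunits is encoded by mitochondrial DNA and all the rest by nuclear genes, so most complexes need both genomes. Smooth muscle and absorptive epithelium of the gut draw on this chain for much of their ATP, and fibroblasts also use glycolysis.

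Nuclear subunit genes had lower values in the DdblGata1 libraries across the complexes, by modest amounts, and none passed the test over all genes. Fold changes are given as DdblGata1 minus wild-type on the log2 scale. Their median was -0.39 over the 82 nuclear genes and -0.32 over the 12 mitochondrial genes, beside -0.0066 over all genes tested. Fitted values were lower for 80 of the 82 nuclear and 8 of the 12 mitochondrial genes, beside 50.7% of all genes. Higher fitted values were found for 6 members and 49.3% of all genes. With adjustment over all 15238 genes, edgeR called 0 of them at 0.05 (0.0%), and so 0 of the 94 members. An unadjusted p under 0.05 was reached by 1564 genes (10.3%). On the lower side these were 645 of all genes (4.23%) and 21 members (22.3%), 20 of them nuclear. The 919 on the higher side (6.03%) held 0 members. All 3 DdblGata1 libraries lay below all 3 wild-type libraries in 1119 genes (7.34%), 26 nuclear and 2 mitochondrial members among them. The reverse order held for 1368 genes (8.98%) and for 0 members. Both orders were read from CPM, counts scaled to library size. DESeq2 called 72 of 14630 genes lower (0.492%), 1 of them a member, Atp5o, and 142 higher (0.971%), with 0 members.

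The size of the difference rested in part on wild-type replicate 1. Each gene was set against its own mean over the 6 libraries on the log2 scale. The median of the nuclear genes was then 0.48, 0.17 and -0.11 for wild-type replicates 1, 3 and 4, and -0.29, -0.04 and -0.19 for DdblGata1 replicates 4, 9 and 10. Wild-type replicate 1 was the highest library for 71 of the 82 nuclear genes, and DdblGata1 replicate 4 the lowest for 47. Wild-type replicate 4 lay below DdblGata1 replicate 9, so the groups overlapped by this measure. Without wild-type replicate 1, the nuclear median was -0.24, 77 of 82 values were lower, and 6 members had an unadjusted p under 0.05 on the lower side (6.38%, beside 3.53% of all genes). Leaving out wild-type replicate 4 gave 47 such members (50.0%, beside 4.73%), leaving out DdblGata1 replicate 4 gave 11 (11.7%, beside 8.2%), and leaving out DdblGata1 replicate 10 gave 13 (13.8%, beside 2.47%). The 28 members whose groups did not overlap on the lower side became 68 without wild-type replicate 4 (72.3%, beside 13.2% of all genes) and 47 without DdblGata1 replicate 9 (50.0%, beside 11.1%). They numbered 28 to 34 when any other library was left out (29.8% to 36.2%, beside 10.0% to 19.0% of all genes). The 19.0% of all genes, without DdblGata1 replicate 4, stood beside 31.9% of members.

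**Figure D1:**
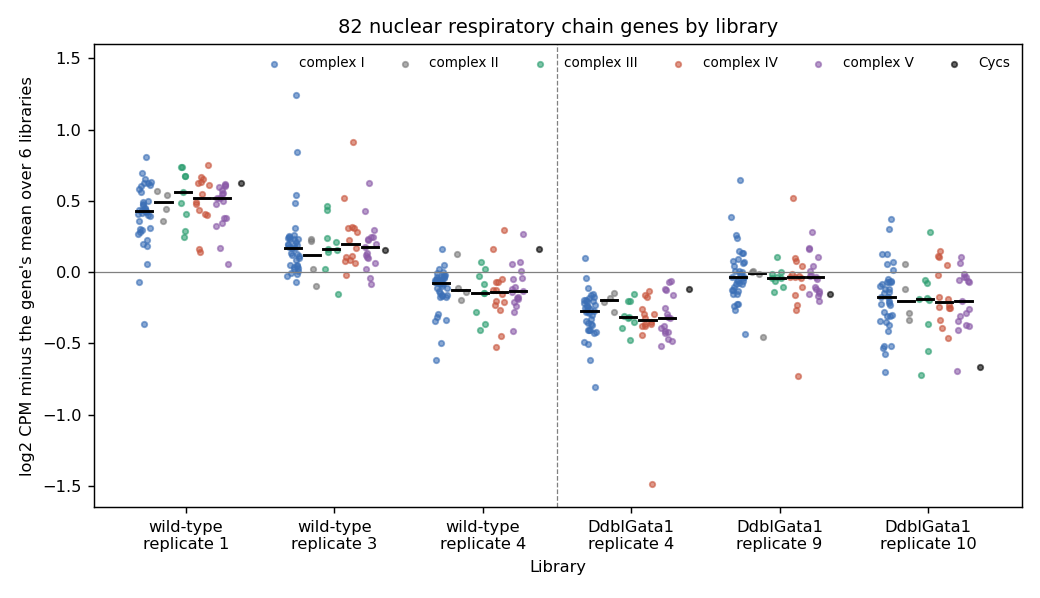
Each point is 1 nuclear subunit gene in 1 library, as log2 CPM minus that gene's mean over the 6 libraries (y axis), coloured by complex, with black bars at the median of each complex. Wild-type replicate 1 stands highest for every complex, and the medians of wild-type replicate 4 lie between those of DdblGata1 replicates 9 and 4.

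Levels per transcript length told the same order. TPM, a level adjusted for transcript length and library size, was summed over the 82 nuclear genes. The wild-type sums were 26010 TPM for replicate 1, 20040 TPM for replicate 3 and 18000 TPM for replicate 4. The DdblGata1 sums were 16020 TPM for replicate 4, 19410 TPM for replicate 9 and 16780 TPM for replicate 10. The groups overlapped through wild-type replicate 4 and DdblGata1 replicate 9. The 12 mitochondrial genes summed to 152800, 167000 and 111700 TPM in wild-type and 102900, 114100 and 135500 TPM in DdblGata1 libraries, which overlapped as well.

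Marker levels of other cell types differed between libraries. The summed TPM of 11 epithelial markers, all 11 present in the gene table, was 5859 for wild-type replicate 1, 929.5 for replicate 3 and 958.7 for replicate 4. The DdblGata1 sums were 1131, 2701 and 1537 for replicates 4, 9 and 10. Epcam itself, the epithelial antigen of the sort, was at 101 TPM in wild-type replicate 1 and at 13.5 to 25.6 TPM elsewhere. The library with the highest nuclear subunit level in each group was also the one with the most epithelial marker RNA, while wild-type replicate 3, second by nuclear sum at 20040 TPM, had the lowest epithelial sum. The 9 smooth muscle markers, all 9 in the table, summed to 14670, 14220 and 9338 TPM for wild-type replicates 1, 3 and 4. The DdblGata1 sums were 6575, 10240 and 8094 TPM for replicates 4, 9 and 10. These sums ranked the libraries in the same order as the nuclear subunit sums. Both were lowest in DdblGata1 replicate 4, where 47 nuclear subunit genes were lowest. Each smooth muscle marker was lower by fitted log2 fold change (-0.45 for Myh11 to -0.80 for Acta2). So was each epithelial marker (-0.40 for Krt19 to -1.16 for Vil1), and for each of these wild-type replicate 1 was the highest library. The epithelial sums of wild-type replicates 3 and 4 lay below all 3 DdblGata1 sums. Fibroblast markers, 7 of 7 in the table, summed to 45970 to 67690 and 55000 to 67210 TPM, with Pdpn, the sorted antigen podoplanin, at 26.2 to 45.8 TPM in wild-type and 46.7 to 61.1 TPM in DdblGata1 libraries.

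Of 10 leukocyte markers, 6 were in the gene table and their list summed to 19.9 to 40.3 and 20.2 to 27.7 TPM. Epx, the eosinophil peroxidase gene, was at 0 in all 6 libraries, where a count of 0 allows up to 3 counts, or 0.107 CPM (counts scaled to library size) in the shallowest. Prg2 and Siglecf, the other eosinophil genes of the list, were detected at low levels and are not in the gene table. Prg2 was at 0.182 to 0.552 TPM in wild-type and at 0, 2.33 and 0.897 TPM in DdblGata1 replicates 4, 9 and 10. Siglecf was at 0.135 to 1.185 TPM in wild-type and 0.0363 to 0.1755 TPM in DdblGata1 libraries. The 6 endothelial markers summed to 24.2 to 30.0 TPM in wild-type and 45.7 to 67.5 TPM in DdblGata1 libraries, with Tek at 11.1 to 21.04 and 34.0 to 59.9 TPM. Tek carried that gap: the other 5 genes of the list summed to 8.185 to 13.1 TPM and 7.6 to 12.01 TPM, and their log2 fold changes ran from -0.68 for Lyve1 to 0.11 for Kdr. Markers of interstitial cells of Cajal, 5 of 5 in the table, summed to 179.4 to 249.6 TPM in wild-type and 83.9 to 180.8 TPM in DdblGata1 libraries, lowest in DdblGata1 replicate 4. The 6 of 6 glial and neuronal markers summed to 70.8 to 182.3 and 101.0 to 168.8 TPM, and the 4 of 4 mesothelial markers to 100.5 to 188.6 and 142.3 to 244.7 TPM. The erythroid list, with 5 of 6 in the table, had 1180 to 1781 and 265.6 to 1425 TPM. The part of these other cells in the subunit levels was not tested. In bulk libraries, fewer cells of a type and less RNA per cell cannot be told apart.

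**Figure D2:**
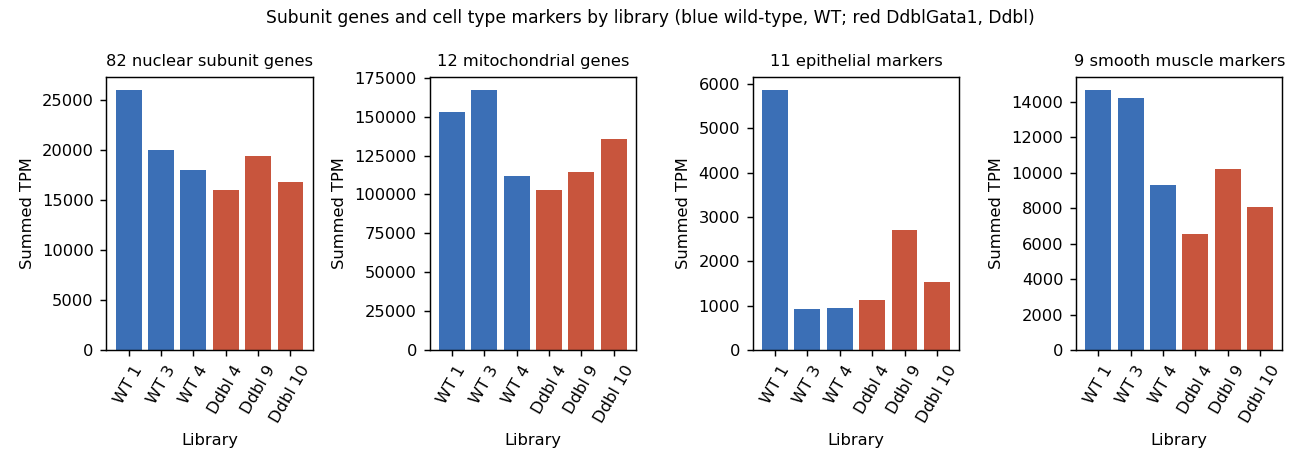
Bars give summed TPM (y axes, from 0) per library for the 82 nuclear subunit genes, the 12 mitochondrial genes, 11 epithelial markers and 9 smooth muscle markers. Wild-type replicate 1 carries 26010 TPM of nuclear subunit RNA and 5859 TPM of epithelial marker RNA, the highest bar in both panels.

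Promoters of respiratory genes are known to be bound by the transcription factors NRF1, GABP and YY1. RefSeq promoter windows on GRCm38.p6, from 250 bases before to 50 after a start, were matched by symbol for 65 of the 82 nuclear members and searched on both strands. The NRF1 core, which is GCGC, then any base, then TGCGC, stood in windows of 17 of the 65 (26.2%), beside 5.19% of 27025 genes with a window and 10.3% of the 11490 of them that were tested. The GABP core CCGGAAG stood in 16 (24.6%, beside 9.93% and 17.9%), and the YY1 core AAGATGGCG in 7 (10.8%, beside 1.64% and 3.12%). At least 1 of the 3 was found for 34 members (52.3%, beside 15.1% and 27.9%), 6 members had 2 or more, and no occurrences of different motifs overlapped. A match is a run of letters and not a measured binding site. Read from the other strand, the NRF1 core is GCGCA, then any base, then GCGC. That is the form in the 3 NRF1 stretches below. The stretches below, taken from matches outside annotated exons, all on the minus strand and upstream of the start, show the shared run in members of complexes I, IV and V (NRF1 core in capitals) and of complexes III and V (GABP core in capitals).
Ndufs5, chr4:123718240-123718319: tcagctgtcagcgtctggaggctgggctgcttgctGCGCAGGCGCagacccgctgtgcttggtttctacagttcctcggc
Cox6a1, chr5:115349031-115349110: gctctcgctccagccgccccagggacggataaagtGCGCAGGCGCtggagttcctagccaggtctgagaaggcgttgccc
Atp5h, chr11:115420016-115420095: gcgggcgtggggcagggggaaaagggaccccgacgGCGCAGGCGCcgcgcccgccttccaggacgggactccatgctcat
Uqcr11, chr10:80406846-80406922: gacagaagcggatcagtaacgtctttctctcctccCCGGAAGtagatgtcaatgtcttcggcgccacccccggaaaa
Atp5e, chr2:174464162-174464238: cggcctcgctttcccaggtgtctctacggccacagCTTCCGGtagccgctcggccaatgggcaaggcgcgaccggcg

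The same 10 letters appear in the Ndufs5, Cox6a1 and Atp5h stretches, and the GABP core is on opposite strands in the Uqcr11 and Atp5e stretches. Medians of the members with and without a motif were close. The median log2 fold change was -0.35 for the 17 members with the NRF1 core and -0.39 for the 48 without it. It was -0.36 for the 16 with the GABP core and -0.39 for the 49 without. For YY1 the values were -0.35 in 7 and -0.39 in 58 members. Ndufs5 and Atp5h were named for their sequence and not for their values.

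Complex I, the NADH dehydrogenase, had 36 of 37 nuclear genes lower by fitted value, and the median log2 fold change was -0.38. An unadjusted p under 0.05 was reached by 7 of them, beside 4.23% of all genes on the lower side. By CPM, 14 had groups that did not overlap, beside 7.34%. Several of these 14 overlapped by TPM, such as Ndufa10, at 75.9 TPM in wild-type replicate 3 and 82.7 TPM in DdblGata1 replicate 9. The median was -0.40 for the 7 nuclear core genes, which carry the flavin and iron-sulfur centres, and -0.36 for the 30 accessory genes. Ndufs8 (chromosome 19, 3908863 to 3912774 in GRCm38), an iron-sulfur core subunit, had 55.2, 43.2 and 37.4 CPM in wild-type and 30.7, 32.4 and 24.9 CPM in DdblGata1 libraries. All DdblGata1 values were below all wild-type values. The log2 fold change was -0.63 ± 0.19 (SE), with an edgeR adjusted p of 0.416. Ndufs7, the core subunit that holds the last iron-sulfur cluster, had 61.9, 40.4 and 35.1 CPM against 30.9, 30.3 and 23.7 CPM (-0.70 ± 0.24, edgeR adjusted p 0.445). Its wild-type values were spread widely by replicate 1. Ndufa13, an accessory subunit, had 79.5, 72.9 and 57.5 CPM against 50.6, 53.9 and 45.4 CPM (-0.49 ± 0.16), again without overlap.

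Nuclear complex I genes ranged from 18.1 TPM for Ndufa4l2 to 478.5 TPM for Ndufa4, as means over the 6 libraries. Both are counted here by name, although NDUFA4 is known as a subunit of cytochrome c oxidase. Ndufa4 had 64.5, 57.7 and 43.3 CPM in wild-type and 34.7, 58.4 and 68.7 CPM in DdblGata1 libraries. DdblGata1 replicates 4 and 10 were the lowest and the highest of the 6, and the log2 fold change was -0.03 ± 0.27. Ndufa4l2, its hypoxia-inducible paralogue, had 7.84, 17.9 and 5.33 CPM against 6.78, 5.56 and 6.49 CPM. Its value of -0.72 ± 0.43 rested on wild-type replicate 3, the only library above 8 CPM. Ndufa4l2 took 7.27% of the summed TPM of the pair in that library and 2.32% to 4.68% in the other 5.

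Complex II, succinate dehydrogenase, is shared with the citric acid cycle and has no mitochondrially encoded subunit. Sdhc, a membrane anchor (chromosome 1, 171127165 to 171150603), had 99.9, 79.8 and 75.01 CPM in wild-type and 62.2, 50.2 and 56.4 CPM in DdblGata1 libraries. The gap between the groups was wider than in the other 3 genes of the complex, and the log2 fold change was -0.59 ± 0.16 (edgeR adjusted p 0.388). Sdhd, the other anchor, had 119, 81.4 and 70.1 CPM against 66.0, 80.7 and 74.0 CPM (-0.30 ± 0.21). Sdhb, the iron-sulfur subunit, had 91.9, 79.5 and 61.2 CPM against 59.5, 66.9 and 53.5 CPM (-0.37 ± 0.18). For both, wild-type replicate 4 lay inside the DdblGata1 range. Sdha, the flavin-bearing catalytic subunit, had 221, 161 and 159 CPM against 148, 172 and 179 CPM (-0.11 ± 0.17). Without wild-type replicate 1 the value of Sdha was 0.04, while DdblGata1 replicates 9 and 10 were above wild-type replicates 3 and 4. Per length, mean levels were 74.5 TPM for Sdhc and 134.9 to 145.3 TPM for the other 3 genes.

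In complex III, the cytochrome bc1 complex, all 9 nuclear genes were lower by fitted value, with a median of -0.43. Unadjusted p was under 0.05 for 2, Cyc1 and Uqcr11, and groups did not overlap for 2, Cyc1 and Uqcrc1, beside the same 4.23% and 7.34%. Cyc1, which encodes cytochrome c1 (chromosome 15, 76343523 to 76346260), had 120, 84.0 and 79.0 CPM in wild-type and 65.4, 68.3 and 51.2 CPM in DdblGata1 libraries (-0.61 ± 0.20, edgeR adjusted p 0.436). Cycs, the soluble carrier that takes electrons from cytochrome c1, had 69.5, 50.1 and 50.4 CPM against 41.5, 40.5 and 28.3 CPM (-0.62 ± 0.21). Both cytochromes had wild-type replicate 1 highest and DdblGata1 replicate 10 lowest. Uqcr11, a small accessory subunit whose promoter stretch is printed above, had 48.9, 40.4 and 26.5 CPM against 23.5, 29.0 and 17.7 CPM (-0.72 ± 0.27). Wild-type replicate 4 lay between the DdblGata1 values. Uqcrc1, a core protein, had 77.6, 75.7 and 66.3 CPM against 52.3, 60.8 and 62.9 CPM (-0.32 ± 0.14). Uqcrfs1, the Rieske iron-sulfur protein, had 98.3, 73.3 and 62.8 CPM against 52.2, 63.6 and 58.0 CPM (-0.43 ± 0.19).

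At the other end of complex III was Uqcrb, a ubiquinone-binding subunit, with 41.4, 34.5 and 27.98 CPM in wild-type and 27.4, 34.0 and 41.2 CPM in DdblGata1 libraries. Its groups covered nearly the same range, and the log2 fold change was -0.02 ± 0.21. Uqcrh, the hinge protein, was the highest nuclear gene of complex III per length at 497 TPM, with 97.3, 77.6 and 62.7 CPM against 52.8, 67.8 and 66.0 CPM (-0.35 ± 0.19). Uqcrc1 was the lowest, at a mean of 91.8 TPM.

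Complex IV, cytochrome c oxidase, had all 14 nuclear genes lower by fitted value, with a median of -0.46. Unadjusted p was under 0.05 for 3, and groups did not overlap for 4 (all genes, 4.23% and 7.34%). Cox4i1 (chromosome 8, 120668222 to 120674207), the nuclear subunit that starts assembly around mt-Co1, had 325, 205 and 232 CPM in wild-type and 159, 185 and 174 CPM in DdblGata1 libraries (-0.56 ± 0.19, edgeR adjusted p 0.445). It was the highest nuclear subunit gene per length, at a mean of 1056 TPM. Cox8a, a small membrane subunit, had 126, 92.9 and 67.1 CPM against 66.1, 62.1 and 54.2 CPM (-0.65 ± 0.23). Cox7a2 had 88.7, 60.4 and 53.1 CPM against 45.6, 47.7 and 48.9 CPM (-0.51 ± 0.20). In these 3 genes the groups were separate by CPM, but wild-type replicate 1 stood well above the other wild-type libraries. By TPM Cox8a overlapped, at 536.4 in wild-type replicate 4 and 546.6 in DdblGata1 replicate 4. Cox4i1 also overlapped by TPM, at 951.8 in wild-type replicate 3 and 958.0 in DdblGata1 replicate 9.

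Several subunits of complex IV come in paralogues that are known to differ by tissue. Cox4i1 made up 99.7% of the summed TPM of its pair on average and Cox4i2, the form linked to low oxygen, 0.297%. Cox4i2 had 0.976, 1.07 and 1.08 CPM against 0.770, 0.496 and 0.969 CPM (-0.48 ± 0.44), separate by CPM but near 1 CPM. By TPM it overlapped, at 3.23 in wild-type replicate 1 and 3.29 in DdblGata1 replicate 10. Cox6a1, whose stretch is printed above, had 117, 103 and 70.8 CPM against 76.0, 77.3 and 65.9 CPM (-0.41 ± 0.20). Its muscle paralogue Cox6a2 had at most 3 counts and is not in the gene table. Of the Cox6b1 and Cox6b2 pair, Cox6b1 made up 83.2% to 86.2% of TPM in wild-type and 86.2% to 89.5% in DdblGata1 libraries. Cox6b1 had 51.3, 48.0 and 28.3 CPM against 30.0, 39.8 and 40.1 CPM (-0.22 ± 0.24). Cox6b2, known from testis, had 7.08, 7.69 and 4.91 CPM against 4.14, 5.23 and 4.07 CPM (-0.55 ± 0.28).

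Among the Cox7a paralogues, Cox7a2 took 61.0%, Cox7a2l 35.6% and Cox7a1 3.39% of their summed TPM on average. Cox7a2l had 129, 123 and 113 CPM in wild-type and 98.2, 116 and 127 CPM in DdblGata1 libraries (-0.10 ± 0.15). A role of its protein in supercomplexes of complexes III and IV is known from other work and was not examined in these Balb/c pups. The share of Cox7a2l was 27.8%, 34.0% and 36.3% for the wild-type and 36.9%, 38.3% and 40.3% for the DdblGata1 libraries. These did not overlap, by a narrow gap, while Cox7a2 shares of 60.5% to 69.1% and 56.2% to 61.9% did overlap. Cox7a2l was the only gene of the paralogue sets whose shares did not overlap. The log2 fold change was -0.10 for Cox7a2l itself and -0.51 for Cox7a2. With 3 against 3 libraries an exact permutation test cannot go below 0.1, so no test of the shares was made. Cox7a1, the form of striated muscle, had 1.77, 2.41 and 0.851 CPM against 0.403, 1.82 and 1.36 CPM (-0.49 ± 0.63).

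Complex V had 16 of 17 nuclear genes lower by fitted value, with a median of -0.41. Unadjusted p was under 0.05 for 6 and groups did not overlap for 4, against 4.23% and 7.34% over all genes. By position in the enzyme, the median was -0.43 for the 5 genes of the catalytic head and central stalk, -0.28 for the 4 of the peripheral stalk, -0.46 for the 3 that encode the c ring, and -0.38 for 4 small membrane subunits. Differences between these medians, or between complexes, were not tested.

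Atp5o (chromosome 16, 91925214 to 91931687), which encodes the peripheral stalk subunit that grips the top of the head, had 171, 121 and 136 CPM in wild-type and 84.1, 101 and 86.9 CPM in DdblGata1 libraries. The 2 groups were separate, and the log2 fold change of -0.65 ± 0.17 had an edgeR adjusted p of 0.384 and a DESeq2 adjusted p of 0.0466. Atp5d, the delta subunit of the central stalk, had 165, 133 and 114 CPM against 103, 94.2 and 67.2 CPM (-0.64 ± 0.21). Atp5e, the epsilon subunit beside it, had 59.4, 51.7 and 47.4 CPM against 38.3, 44.2 and 36.8 CPM (-0.41 ± 0.15). Both were separate between the groups. Atp5b, the catalytic beta subunit, was the highest of complex V per length at 829 TPM, and had 1095, 895 and 695 CPM against 588, 745 and 662 CPM (-0.43 ± 0.21). There wild-type replicate 4 and DdblGata1 replicate 9 overlapped.

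The c ring, the rotor that protons turn, is made of one protein encoded by 3 genes. Atp5g3 supplied 64.7% of their summed TPM on average, Atp5g2 22.8% and Atp5g1 12.5%. Atp5g3 had 220, 173 and 144 CPM in wild-type and 107, 146 and 124 CPM in DdblGata1 libraries (-0.51 ± 0.20). Atp5g1 had 52.1, 42.1 and 32.3 CPM against 32.8, 32.3 and 26.8 CPM (-0.46 ± 0.20). In both, only wild-type replicate 4 reached the DdblGata1 range. Atp5g2 had 70.0, 104 and 50.5 CPM against 50.5, 75.8 and 66.8 CPM (-0.22 ± 0.27), and without wild-type replicate 3 its value was 0.10. Atp5s, a coupling factor gene at 8.28 TPM, had 4.54, 3.79 and 3.40 CPM against 3.85, 4.90 and 3.84 CPM (0.10 ± 0.28), with groups that covered each other.

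**Figure D3:**
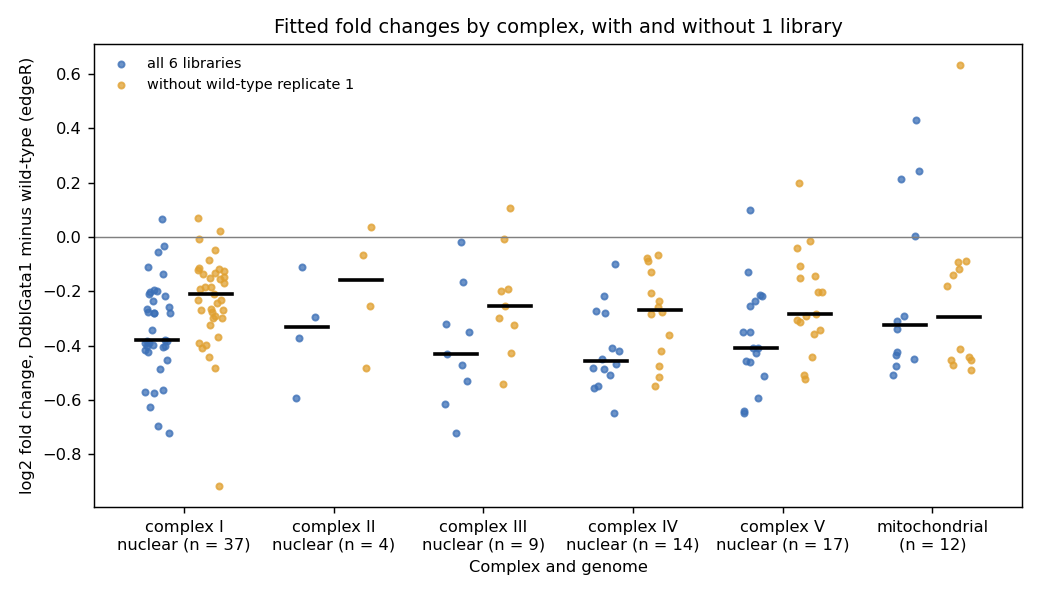
Fitted log2 fold changes (y axis, DdblGata1 minus wild-type, edgeR) of the members by complex and genome, with all 6 libraries (blue) and without wild-type replicate 1 (orange), black bars at medians. Nuclear medians run from -0.33 to -0.46 with all libraries, and the median over the 82 genes moves from -0.39 to -0.24 without that library.

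Mitochondrial genes are transcribed as long polycistronic RNAs that are cut into messages, so their levels share a source. Of the 12 in the table, 9 had over 10000 counts in every library, a limit chosen after the values were seen, and their median log2 fold change was -0.42. Relative to each gene's mean, the median of these 9 was 0.30, 0.45 and -0.08 for wild-type replicates 1, 3 and 4. For DdblGata1 replicates 4, 9 and 10 it was -0.41, -0.25 and 0.06. Here wild-type replicate 3, and not replicate 1, was highest, and DdblGata1 replicate 10 exceeded wild-type replicate 4. The mean log2 CPM of these 9 minus that of the nuclear genes was 6.45, 6.88 and 6.52 for the wild-type and 6.57, 6.42 and 6.92 for the DdblGata1 libraries. The balance between the genomes did not order the libraries by genotype. It was highest in wild-type replicate 3 and DdblGata1 replicate 10, whose mean fragment lengths were the shortest, 329 and 326 bases. It was lowest, at 6.42, in DdblGata1 replicate 9, which had the next shortest mean fragment length, 341 bases.

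mt-Cytb, the mitochondrial cytochrome b of complex III (14145 to 15288 of the mitochondrial genome), had 6586, 6939 and 5171 CPM in wild-type and 3906, 4141 and 5109 CPM in DdblGata1 libraries. The groups were separate by the small gap between wild-type replicate 4 and DdblGata1 replicate 10, and the log2 fold change was -0.51 ± 0.21 (edgeR adjusted p 0.483). mt-Co1, the catalytic subunit of complex IV, was the highest member at a mean of 26810 TPM. It had 20350, 20550 and 16420 CPM against 12390, 12960 and 15870 CPM (-0.48 ± 0.22), also without overlap. Both genes without overlap encode subunits that carry the electron-transferring haems. Each gap, between wild-type replicate 4 and DdblGata1 replicate 10, was narrow, and a link to that role was not tested.

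The other mitochondrial genes overlapped between the groups. Among complex I genes, mt-Nd1 had 3939, 4827 and 3279 CPM against 2398, 2871 and 3653 CPM (-0.43 ± 0.23). mt-Nd2 had 2535, 2793 and 1951 CPM against 1525, 1705 and 2101 CPM (-0.45 ± 0.21). mt-Nd4 had 4751, 5573 and 4026 CPM against 2979, 3324 and 4394 CPM (-0.42 ± 0.22). These 3 encode subunits of the membrane arm, and in each DdblGata1 replicate 10 alone reached the wild-type range. mt-Nd5, another membrane-arm gene, had 1615, 2154 and 1574 CPM against 1425, 1524 and 2403 CPM (0.00 ± 0.25).

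In complexes IV and V, mt-Co3 had 6448, 8716 and 5598 CPM in wild-type and 4147, 5396 and 6889 CPM in DdblGata1 libraries (-0.34 ± 0.26). mt-Co2, which takes electrons from cytochrome c, had 5278, 5460 and 2123 CPM against 3227, 3482 and 3809 CPM (-0.29 ± 0.34). mt-Atp6, the proton channel subunit of complex V, had 4807, 4643 and 1829 CPM against 3045, 2712 and 3354 CPM (-0.31 ± 0.35). Wild-type replicate 4 was thus the lowest library for mt-Co2 and mt-Atp6, which lie next to each other in the coding order apart from mt-Atp8, and not for mt-Co1 or mt-Co3 on either side.

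mt-Atp8 was at 0 counts in all 6 libraries and is not in the gene table. The annotation (GENCODE M21, GRCm38) gives it 204 bases, and its last 43 bases are also the first 43 of mt-Atp6. The shared run is shown with the start codon of mt-Atp6 and the stop codon of mt-Atp8 in capitals.
mt-Atp8 end and mt-Atp6 start, chrM:7927-7969: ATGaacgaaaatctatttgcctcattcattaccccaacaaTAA

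A count of 0 here does not show that the message was absent, and how reads were assigned was not tested. mt-Nd4l and mt-Nd4 share 7 bases, mt-Nd5 and mt-Nd6 share 14 bases on opposite strands, and mt-Atp6 and mt-Co3 share 1. mt-Nd6, the only member read from the other strand of the circle, had 1.89, 1.0 and 0.818 CPM against 1.17, 1.16 and 1.97 CPM (0.21 ± 0.49). The libraries were made with a stranded kit, but the sources used here do not say whether counting used the strand.

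**Figure D4:**
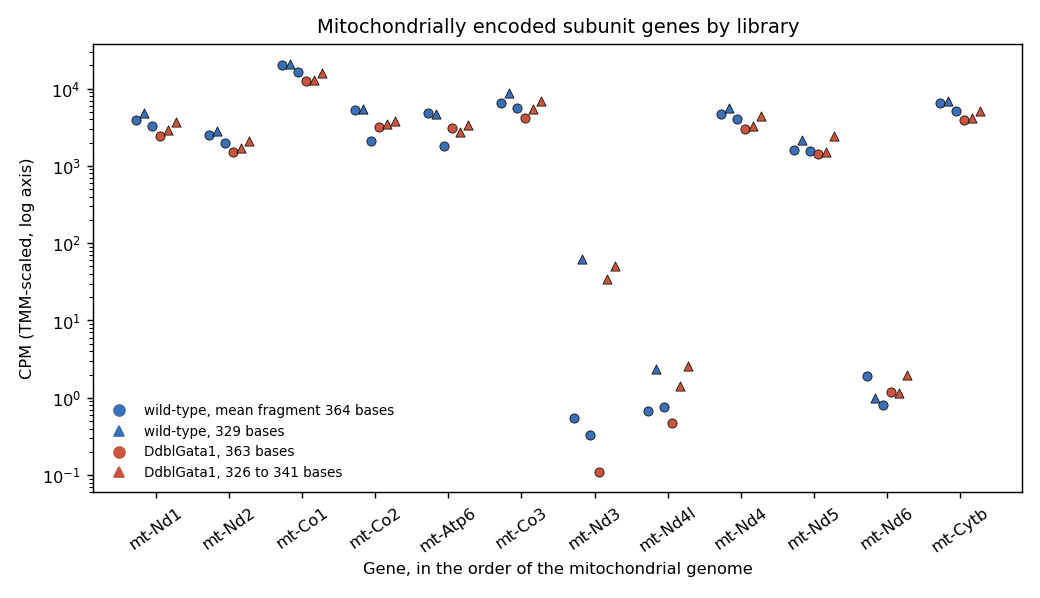
CPM on a log axis for the 12 mitochondrial genes in genome order, 6 libraries each, blue wild-type and red DdblGata1, with circles for libraries of longer and triangles for libraries of shorter mean fragments. mt-Nd3 splits by fragment length, at 34.8 CPM and above in triangles and at 0.549 CPM and below in circles, and mt-Co2 and mt-Atp6 have their lowest point in wild-type replicate 4.

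The levels of 2 short mitochondrial messages separated by fragment length class. The mean fragment was 363 or 364 bases in wild-type replicates 1 and 4 and DdblGata1 replicate 4, and 326 to 341 bases in wild-type replicate 3 and DdblGata1 replicates 9 and 10. mt-Nd3, of 348 bases, had 0.549, 62.2 and 0.327 CPM in wild-type and 0.110, 34.8 and 50.0 CPM in DdblGata1 libraries. mt-Nd4l, of 297 bases, had 0.671, 2.38 and 0.753 CPM against 0.477, 1.42 and 2.58 CPM. Both were low in all 3 libraries of longer fragments and high in all 3 of shorter fragments. Their log2 fold changes, 0.43 ± 2.21 and 0.24 ± 0.72, are between groups that hold 2 and 1 libraries of longer fragments. Within the longer and the shorter class, DdblGata1 minus wild-type was -1.33 and -0.58 for mt-Nd3 and -0.49 and -0.29 for mt-Nd4l, on the log2 scale and with no test. Among nuclear genes Ndufa3 did the same, with 15.1, 34.9 and 12.7 CPM against 11.1, 30.4 and 23.99 CPM, as did Ndufa1. Both were chosen after their values were seen. In all, 4 of the 94 members were lower in every library of longer fragments, beside 7.80% of all genes.

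Within the 3 libraries of longer fragments (2 wild-type, 1 DdblGata1), the median log2 difference, DdblGata1 minus wild-type, was -0.47 for nuclear genes, 81 of 82 of them lower. Within the 3 of shorter fragments (1 wild-type, 2 DdblGata1) it was -0.31, with 71 of 82 lower. For the mitochondrial genes it was -0.54 and -0.55, with 11 of 12 lower in each, beside -0.0003 and 0.0094 over all genes. The direction was the same at both fragment lengths, with 1 library on a side and no test.

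Fold change varied with base composition among the nuclear members. Over the 82 genes, Pearson's r between log2 fold change and the GC content of the main transcript was -0.55 and Spearman's rho -0.53, and over 15223 genes of the table they were -0.31 and -0.38. These correlations run across genes, which share libraries and are not independent replicates. The 41 members above the median GC content of 52.5% had a median log2 fold change of -0.45, and 18 (43.9%) had groups that did not overlap. The 41 others had -0.28 and 8 (19.5%). All genes of the table above that GC content had a median of -0.15 with 10.8% not overlapping on the lower side, and those at or below it had 0.09 with 5.10%. Members lay lower than all genes both above and below that GC content.

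**Figure D5:**
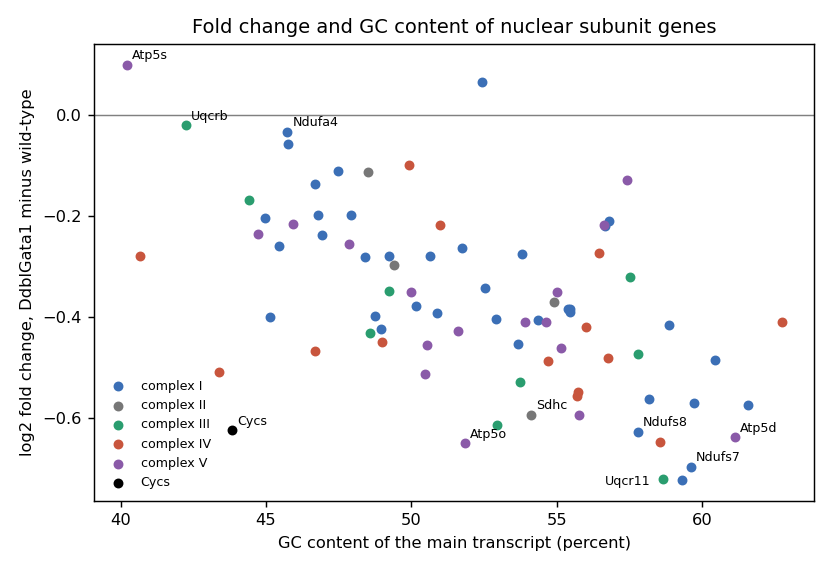
Log2 fold change (y axis, DdblGata1 minus wild-type) against the GC content of the main transcript (x axis, percent) for the 82 nuclear subunit genes, coloured by complex. Values tend to be lower at higher GC content. Atp5s (40.2%, 0.10) has the lowest GC content and Cox6a1 (62.7%, -0.41) the highest. Atp5d is at 61.1% and -0.64, and Cycs (43.8%, -0.62) lies below the trend.

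Many members have noncoding transcript models, and the share of TPM assigned to protein-coding ones was 70.3%, 74.0% and 70.2% for nuclear members of the wild-type and 73.2%, 71.5% and 72.9% for those of the DdblGata1 libraries. Over all genes of the table it was 79.8% to 82.8%. The median nuclear member had 91.2% of its TPM in coding transcripts. Counting these alone, 73 of 82 genes were lower by mean TPM, with a median log2 ratio of -0.29, and 17 had groups that did not overlap on the lower side (20.7%, beside 4.46% of the 14766 genes with coding transcripts). Sdhc and Ndufs8, with all their TPM in coding transcripts, had ratios of -0.51 and -0.54, and Atp5o, with 67.2%, had -0.49. For Cox4i1 the coding share was 36.6% and the ratio -0.19. Per-transcript division of reads is an estimate, and it was least settled for genes such as Uqcr11, with a coding share of 3.51%.

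Other genes that build or feed the chain were read from lists. Of all genes, 50.7% were lower by fitted value, and 4.23% had an unadjusted p under 0.05 on that side (edgeR). Of 49 assembly factors tested, 34 were lower by fitted value with a median of -0.10, and 0 reached an unadjusted p under 0.05. Of 32 genes for mitochondrial DNA upkeep, transcription and RNA handling, 12 were lower, the median was 0.03, and 0 reached that p. Tfam, which packages and transcribes mitochondrial DNA, had 28.1, 24 and 25.5 CPM in wild-type and 27.2, 25.1 and 30.1 CPM in DdblGata1 libraries.

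Of 19 citric acid cycle genes 17 were lower, with a median of -0.25. On that side 3 had an unadjusted p under 0.05, beside 4.23% of all genes. Among these 3, Mdh2, malate dehydrogenase, had 284, 168 and 173 CPM against 158, 140 and 120 CPM (-0.58), and Idh2 had a value of -0.39. Of 14 inner membrane carriers and related proteins, 13 were lower, with a median of -0.22. Slc25a5, an ADP/ATP exchanger, had 200, 146 and 134 CPM against 118, 113 and 90.9 CPM (-0.58), and Ucp2, an uncoupling protein family member, had 263, 195 and 208 CPM against 192, 125 and 115 CPM (-0.63). Of 18 genes for ubiquinone synthesis and other electron donors 16 were lower, with a median of -0.13, and 0 reached that p.

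Of 16 regulators of respiratory genes 10 were higher by fitted value, beside 49.3% of all genes, with a median of 0.08. On the higher side 2 had an unadjusted p under 0.05 (6.03% of all genes) and 4 had groups that did not overlap (8.98% of all genes). Pprc1, a coactivator of the PGC-1 family, had 24.9, 21.3 and 38.3 CPM against 40.6, 64.4 and 39.5 CPM (0.78 ± 0.28). Myc had 25.9, 23.97 and 23.89 CPM against 26.3, 41.2 and 42.2 CPM (0.57 ± 0.21). Both were separate between groups by a narrow gap, with edgeR adjusted p of 0.450 and 0.452. Ppargc1a, the PGC-1alpha coactivator, had 19.5, 20.7 and 13.0 CPM against 8.40, 14.9 and 14.5 CPM (-0.49 ± 0.28). Yy1 had 74.5, 68.9 and 68.2 CPM against 82.6, 85.0 and 88.2 CPM (0.27 ± 0.13), higher in all 3 DdblGata1 libraries than in any wild-type library, with an edgeR adjusted p of 0.498. Nrf1 (-0.04 ± 0.21) and Gabpa (0.12 ± 0.18), whose motifs were counted above as was that of YY1, overlapped between the groups.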

How the data were processed

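Bulk RNA libraries of 6 samples, 3 wild-type and 3 DdblGata1, were grouped by labelled genotype. Per the labels, epithelium was removed in 10 mM EDTA over 30 min, tissue was digested in rounds of 20 min, and a stranded kit was used on 100 ng of RNA. Tools in the submitters' processing notes are kallisto, bcl2fastq 2.2, DESeq2 and R 4.2.2, and the builds are GRCm38.p6 and mm10, without the step each served. The authors deposited a gene table of rounded estimated (expected) counts, in which every gene reaches 10 counts in 3 or more libraries. They also deposited, per library, kallisto's estimated counts and TPM for 115270 transcripts with other values, namely lengths and effective lengths in bases. Of these gene values 99.6% matched TPM times the gene's mean effective length, rescaled per library, to within 1% plus 1 count, and 26.3% equalled plain transcript sums. A deposited sheet gives each library's size factor as a ratio and 2 surrogate variables as a score per library, with no method stated. Totals were 28110454 to 31210800 counts per library.

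Genes were tested with edgeR 4.0.16 in R 4.3.3 (TMM, robust quasi-likelihood fits, no gene lost to filterByExpr, Benjamini-Hochberg adjustment over all 15238 genes at 0.05). CPM are TMM-scaled, and list levels use a prior count of 2. On counts simulated from these libraries with 50 genes changed at each size, edgeR recovered 1 at 1.5-fold, 19 at 2-fold and 48 at 4-fold, with 8 false calls over 15238 genes. DESeq2 1.42.0, limma 3.58.1 on log2(TPM + 1) and other scalings, filters and left-out libraries were alternatives. Transcripts were placed with GENCODE M21. Surrogate variables, fragment length and plain sums were alternatives added after the data were seen. Members, lists and motifs were chosen with earlier results of these data known, so members were not tested as a set. Named members are all mitochondrial ones, complex II, both cytochromes c, the paralogue sets, and per complex the 3 of smallest p, the 1 of largest p and those of highest and lowest TPM.

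The rule also names 6 protein-coding genes that are not in the gene table: mt-Atp8, Cox6a2, Cox7b2, Cox8b, Cox8c and a second identifier of Atp5o, which had at most 14.1 counts in any library. Another 11 were processed pseudogenes, of which Ndufb4c had 93.2 counts in DdblGata1 replicate 10. Results of 2 genes are not reported here.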

Additional observations from a re-analysis of the deposited data

How the results depend on the processing

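No paired analysis was possible because the groups share only the replicate number 4. edgeR called 0 genes at an adjusted p under 0.05 with all 6 libraries (1564 at an unadjusted p under 0.05), and from 0 to 1 when 1 library was left out. The count of 21 members at an unadjusted p under 0.05 ran from 6 to 47 when 1 library was left out. It was 36 with upper quartile scaling (all genes on the lower side, 5.85%), 12 with limma on log2(TPM + 1) (2.46%) and 39 with the deposited surrogate variables as covariates (6.04%), and DESeq2 gave 32 (5.54%) with 214 of all genes and 1 member called. Nuclear and mitochondrial medians were negative under every alternative run, at -0.24 to -0.51 and -0.13 to -0.55 when 1 library was left out. The cause of these shifts was not tested. For the 45 named members, 774 of 807 alternative values kept direction and side of the threshold, 1 passed it (Atp5o by DESeq2, adjusted p 0.0466) and 32 changed sign, all of them in members whose groups overlap. With 1 library left out, the log2 fold change ran from -0.26 to 0.20 for Ndufa4, -0.19 to 0.038 for Sdha, -0.19 to 0.12 for Uqcrb, -0.43 to 0.095 for Atp5g2 and -0.042 to 0.20 for Atp5s. For mitochondrial genes it ran from -0.30 to 5.99 for mt-Nd3, where the 3 libraries of shorter fragments hold nearly all reads, -0.43 to 1.07 for mt-Nd4l, -0.29 to 0.16 for mt-Nd5 and -0.099 to 0.63 for mt-Nd6. On log2(TPM + 1), Ndufa4 had 0.012 and Uqcrb 0.061, and Uqcrb had 0.063 with plain transcript sums. With the surrogate variables mt-Nd3 had -2.38, mt-Nd4l -0.74 and mt-Nd5 -0.25, and with fragment length as a covariate mt-Nd4l had -0.31 and mt-Nd5 -0.16. mt-Nd5, at 0.00 by edgeR, was -0.0043 by DESeq2, -0.0043 with RLE scaling, -0.053 with upper quartile scaling, -0.0085 with TMM factors from the other genes and -0.026 by limma-voom.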
